A study of Mus musculus with 6 samples.

Results

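The small leucine-rich proteoglycans are a family of secreted matrix proteins. The 10 genes described here are Dcn, Bgn, Aspn, Fmod, Lum, Prelp, Kera, Omd, Ogn and Epyc, out of 19938 genes that have a probe set with a single symbol on the arrays. They were chosen by family name, when large falls of Dcn and Prelp in these data were already known, so that their differences describe this experiment and are not an independent finding about the family. The only measured value in the rule was the mean log2 intensity over the 6 arrays, meant to pick a probe set for each gene, and every member had just 1 probe set.

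The arrays came from NIH/3T3 cells, a mouse fibroblast line, grown in 10% bovine calf serum with 2 µg/ml of the RNA polymerase II inhibitor α-amanitin. In the 8KR group (3 arrays), the cells were stably transfected with an HA-tagged mouse RPB1 in which arginine, which cannot be acetylated, takes the place of the lysines at position 7 of the tail repeats. RPB1 is the catalytic subunit of RNA polymerase II. In the wild type (WT) group (3 arrays), the HA-tagged RPB1 kept its lysines. Both groups therefore carry a transgene and were kept in the drug. The labels call the 3 arrays of a group biological replicates. The sources used here do not say whether each group goes back to a single clone, and name no batch. Since the prefix of the sample names differs between the groups without an explanation, genotype and any batch cannot be told apart. The p-values measure the spread between these samples.

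Each value below is a log2 intensity of a probe set, and differences are 8KR minus WT. The median of all 35557 probe sets lay between 4.49 and 4.54 on every array, and correlations were 0.982 to 0.984 between arrays of a group and 0.975 to 0.978 between groups. The study's methods treat a log2 intensity of 3.0 as the limit of background, and a probe set was tested if at least 1 group mean lay above it, which 17145 genes passed. Polr2a, the gene for RPB1, differed by 0.03, and whether its probe set also detects the transgene was not tested. A gene was called if its adjusted p from limma over all tested probe sets was under 0.05. Intensities of different genes depend on their probes and were not set against each other.

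Small leucine-rich proteoglycans consist of a core of leucine-rich repeats that usually carries glycosaminoglycan chains. They bind to collagen and shape the thickness and spacing of its fibrils, and several of them also hold growth factors such as TGF-beta in the matrix. By sequence they are sorted into classes. Of the 10 genes described here, class I holds decorin (Dcn), biglycan (Bgn) and asporin (Aspn). Class II holds fibromodulin (Fmod), lumican (Lum), Prelp, keratocan (Kera) and osteomodulin (Omd), and class III holds osteoglycin (Ogn) and epiphycan (Epyc). Decorin and biglycan carry chondroitin or dermatan sulfate, whereas most class II proteins carry keratan sulfate.

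Of the 10 genes, Dcn, Prelp, Aspn and Ogn were lower in 8KR cells, and no member was called higher. The other members tested, Bgn, Fmod, Omd and Kera, were not called, and Lum and Epyc did not pass the filter on intensity. The 4 members called lower, of 8 tested, stand beside 3.06% of all tested genes called lower and 2.33% called higher. The 8 had a median difference of -0.70, against 0.01 over all tested genes. All 3 8KR arrays lay below all 3 WT arrays for 6 of the 8 genes, a pattern found in 14.7% of all tested genes. In RNA of whole cultures, fewer cells that express a gene and less of its RNA per cell cannot be told apart. Leaving out any 1 of the 6 arrays left the same count of 4, though some calls held only narrowly. The largest adjusted p from limma was then 0.00806 for Dcn, 0.0329 for Prelp, 0.0461 for Aspn and 0.047 for Ogn.

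**Figure D1:**
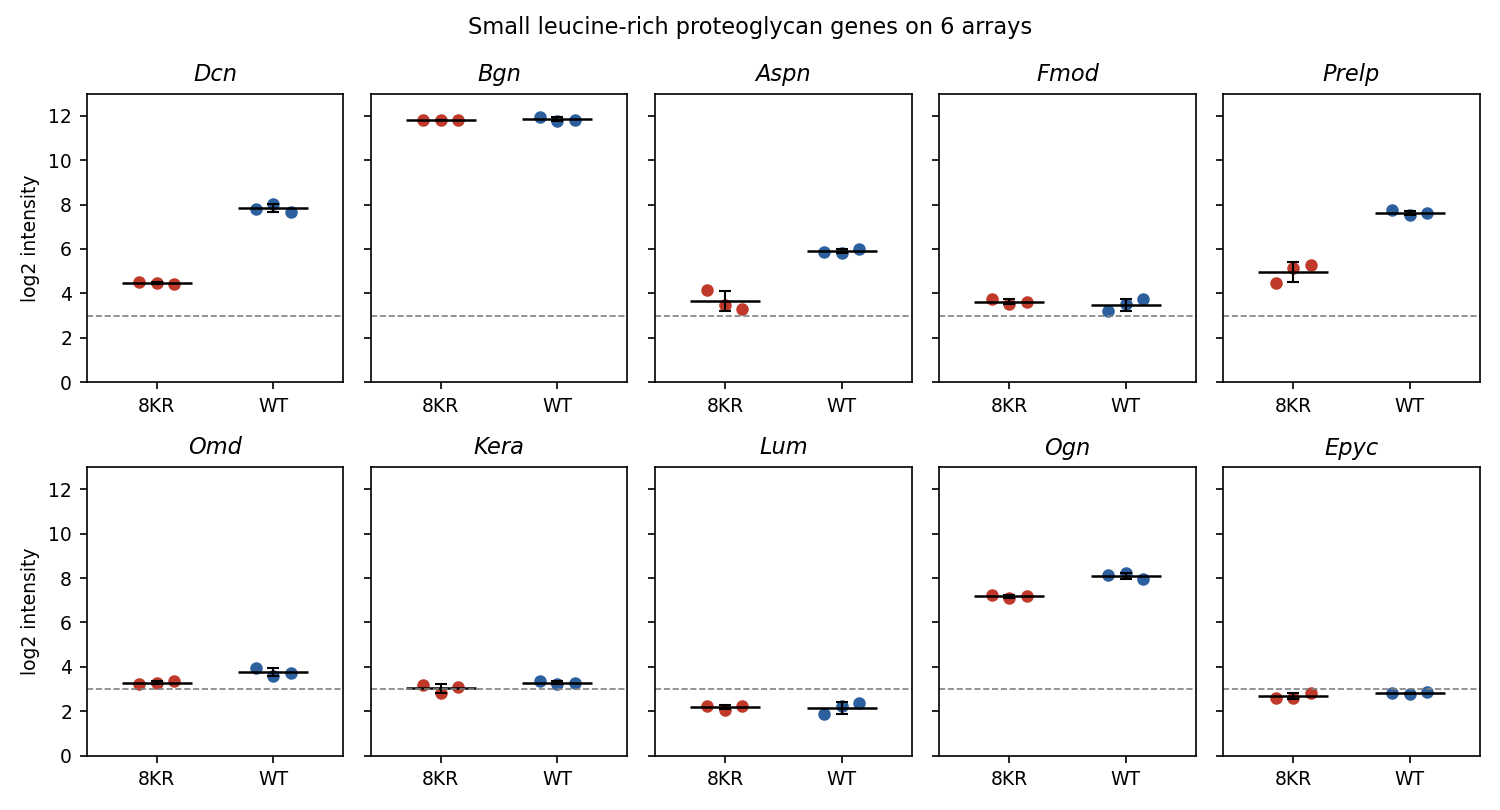
Log2 intensity (vertical axis) of the 10 genes on the 3 8KR arrays (red, left in each panel) and the 3 WT arrays (blue, right), each array drawn as a point, group means as black lines, SDs as error bars and a dashed line at the background limit of 3.0. Dcn, Prelp, Aspn and Ogn lie clearly lower on all 8KR arrays, Bgn lies near 11.8 in both groups, and Lum and Epyc lie below the dashed line on all 6 arrays.

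Among the class I genes, Dcn changed most. Decorin binds type I collagen and TGF-beta, and fibroblasts are a main source of it. Its log2 intensity was 4.51, 4.49 and 4.41 on the 8KR arrays, against 7.80, 8.03 and 7.68 on the WT arrays. The groups stood 3.17 apart at their nearest arrays. Means were 4.47 ± 0.05 in 8KR cells and 7.84 ± 0.18 in WT cells (SD, n = 3 each), so that Dcn was 10.3-fold lower in 8KR cells (difference -3.37, standard error 0.11, 95% interval -3.63 to -3.11, adjusted p = 4.68e-04 from limma). In the order of all 17145 differences, from the deepest fall upward, Dcn ranked 2. Its 8KR mean lay near the median of all probe sets on the arrays (4.49 to 4.54). How much of that signal was background was not tested.

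Asporin, named for a stretch of aspartates, is a class I protein that lacks the usual glycosaminoglycan attachment and can block TGF-beta. Aspn measured 4.17, 3.48 and 3.29 on the 8KR arrays, against 5.88, 5.81 and 6.02 on the WT arrays. All 8KR values lay below all WT values, and the 8KR arrays spread much more than the WT arrays. Means were 3.65 ± 0.46 in 8KR cells and 5.90 ± 0.10 in WT cells (SD, n = 3 each), a 4.78-fold lower intensity (difference -2.26, standard error 0.23, adjusted p = 0.00802 from limma). Its SD in 8KR cells exceeded that of 99.1% of tested genes, where the median SD was 0.121. The lowest 8KR array, at 3.29, lay close to the background limit.

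Bgn, the gene of biglycan and the nearest relative of Dcn in class I, was not called. Its values were 11.80, 11.79 and 11.81 on the 8KR arrays and 11.96, 11.78 and 11.80 on the WT arrays, and the groups overlapped. The difference was -0.04 (95% interval -0.24 to 0.15, adjusted p = 0.815 from limma).

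In class II, Prelp fell, whereas the others were not called. The Prelp protein has a basic end that binds heparan sulfate and is thought to tie basement membranes to collagen. Prelp measured 4.46, 5.12 and 5.28 on the 8KR arrays, against 7.74, 7.52 and 7.60 on the WT arrays. No arrays of the groups overlapped, with a gap of 2.24, and 8KR replicate 1 was the lowest. Means were 4.95 ± 0.44 in 8KR cells and 7.62 ± 0.11 in WT cells (SD, n = 3 each), or 6.35-fold lower in 8KR cells (difference -2.67, standard error 0.22, adjusted p = 0.00460 from limma). As with Aspn, the SD of Prelp in 8KR cells was high, above that of 98.8% of tested genes. In Prelp 8KR replicate 1 was the lowest 8KR array and in Aspn the highest, so no single array was low for both.

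Omd encodes osteomodulin, a keratan sulfate proteoglycan best known from bone. Its values were 3.21, 3.29 and 3.35 on the 8KR arrays and 3.96, 3.58 and 3.74 on the WT arrays, without overlap but close to background in both groups. The difference of -0.48 (95% interval -0.76 to -0.20) did not pass after adjustment (adjusted p = 0.0794 from limma), although it did over single-symbol probe sets alone (adjusted p = 0.0344 from limma). Fmod, the gene of fibromodulin, which binds the same collagens as lumican, measured 3.75, 3.53 and 3.61 on the 8KR arrays and 3.20, 3.50 and 3.73 on the WT arrays. These overlapped, and the difference was 0.15 (95% interval -0.21 to 0.52, adjusted p = 0.646 from limma).

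Kera encodes keratocan, a proteoglycan of the corneal stroma. Its values were 3.19, 2.81 and 3.11 on the 8KR arrays and 3.38, 3.23 and 3.26 on the WT arrays, which surround the background limit. The difference was -0.26 (95% interval -0.55 to 0.04, adjusted p = 0.311 from limma). Lum, the gene of lumican, which is abundant in many connective tissues, lay below background throughout, with 2.26, 2.08 and 2.24 on the 8KR arrays and 1.86, 2.23 and 2.39 on the WT arrays. It was therefore neither tested nor given a fold.

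Of the class III genes among the members, Ogn and Epyc, only Ogn was tested. Osteoglycin, also called mimecan, is a small proteoglycan of bone, vessel wall and other connective tissue. Ogn measured 7.21, 7.11 and 7.19 on the 8KR arrays, against 8.15, 8.21 and 7.93 on the WT arrays. The groups did not overlap and all 6 arrays lay far above background. Means were 7.17 ± 0.06 in 8KR cells and 8.10 ± 0.14 in WT cells (SD, n = 3 each), or 1.90-fold lower in 8KR cells (difference -0.93, standard error 0.10, adjusted p = 0.00865 from limma). Epyc, the gene of epiphycan, a cartilage proteoglycan, had 2.58, 2.60 and 2.83 on the 8KR arrays and 2.80, 2.79 and 2.85 on the WT arrays, all below background, and was not tested. By class, 2 of 3 tested members fell in class I, 1 of 4 in class II and 1 of 1 in class III. Of all tested genes, 3.06% were called lower. The class II genes not called, Fmod, Omd and Kera, lay close to background in both groups, so the classes cannot be compared.

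**Figure D2:**
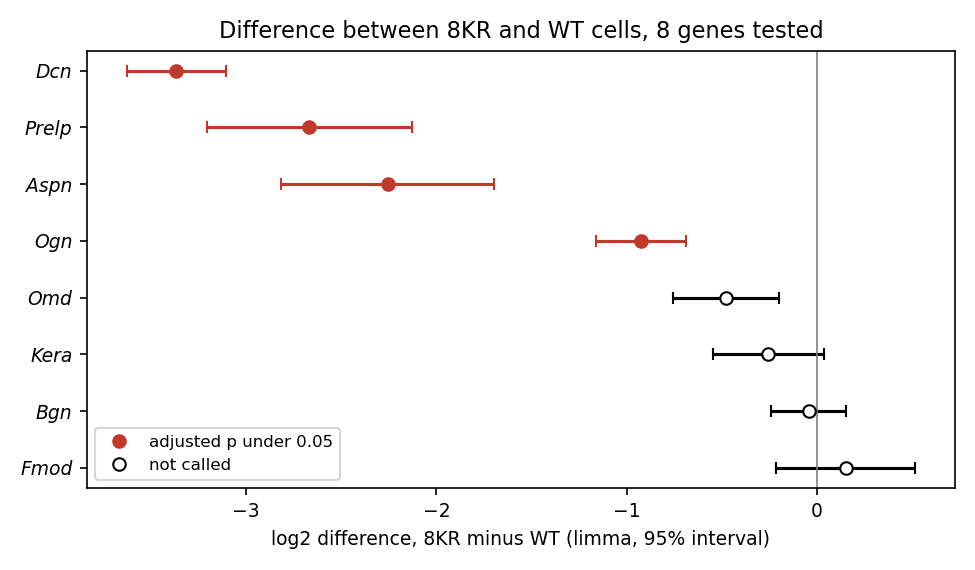
Log2 difference between 8KR and WT cells (horizontal axis) for the 8 members tested, as points with 95% intervals from limma, red where the adjusted p was under 0.05 and open otherwise. The 4 called genes run from -3.37 for Dcn to -0.93 for Ogn, and the intervals of Kera, Bgn and Fmod reach across 0.

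Promoter windows of the called members Prelp, Aspn and Ogn are shown, and that of Bgn as a member that was not called. No window of Dcn was used here. A window runs from 250 bases before the start site to 50 after it, in GRCm38.p6, and 8 of the 10 members matched. The letters of 5 motifs were searched on both strands: TGANTCA for AP-1, GGAATG for TEAD factors, GGGCGG for the GC box, CAGACA for Smad factors and TATAAA for the TATA box. Every match is in capitals, and a match is a string of letters, not a shown binding site.

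Prelp, chr1:133921352-133921651, minus strand: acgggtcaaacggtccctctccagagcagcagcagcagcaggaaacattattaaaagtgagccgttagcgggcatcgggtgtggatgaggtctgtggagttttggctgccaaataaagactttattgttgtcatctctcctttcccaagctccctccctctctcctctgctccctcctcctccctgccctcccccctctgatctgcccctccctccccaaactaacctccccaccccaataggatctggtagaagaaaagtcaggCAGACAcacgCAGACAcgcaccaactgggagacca
Aspn, chr13:49544193-49544492, plus strand: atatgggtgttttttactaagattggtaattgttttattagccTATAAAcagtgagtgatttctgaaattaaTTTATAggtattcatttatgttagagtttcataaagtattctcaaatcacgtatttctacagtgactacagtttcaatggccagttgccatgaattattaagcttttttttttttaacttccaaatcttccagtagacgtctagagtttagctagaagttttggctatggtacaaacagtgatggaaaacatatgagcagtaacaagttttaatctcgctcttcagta
Ogn, chr13:49607765-49608064, plus strand: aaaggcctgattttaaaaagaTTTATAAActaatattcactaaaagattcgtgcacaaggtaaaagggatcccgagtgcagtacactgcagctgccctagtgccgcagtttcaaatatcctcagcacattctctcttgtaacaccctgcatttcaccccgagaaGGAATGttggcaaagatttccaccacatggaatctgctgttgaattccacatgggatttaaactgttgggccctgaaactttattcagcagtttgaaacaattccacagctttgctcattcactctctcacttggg
Bgn, chrX:73483351-73483650, plus strand: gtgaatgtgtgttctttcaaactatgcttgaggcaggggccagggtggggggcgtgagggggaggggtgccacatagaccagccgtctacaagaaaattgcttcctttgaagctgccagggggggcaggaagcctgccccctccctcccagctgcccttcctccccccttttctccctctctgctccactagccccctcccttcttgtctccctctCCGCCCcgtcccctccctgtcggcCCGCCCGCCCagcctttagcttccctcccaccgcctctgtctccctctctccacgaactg

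No motif was found in all of the windows of Prelp, Aspn and Ogn. The Prelp window held CAGACA from bases 16 and 26 of the transcript on, a string found in 21.0% of all 32851 windows. Aspn and Ogn both held TATAAA on both strands, in Aspn from positions -207 and -178 relative to the start site and in Ogn from -229 and -227, where the matches overlap. This string was found in 13.6% of all windows. Ogn also held GGAATG from position -86, as did 14.7% of all windows. The Bgn window held GGGCGG on the minus strand at positions -34, -10 and -6, the last of these overlapping the one before it (35.7% of all windows), and had 63.7% G and C, compared with 55.3% for Prelp, 42.3% for Ogn, 31.0% for Aspn and a median of 52.7% over all windows. TGANTCA, found in 7.8% of all windows, was in none of these 4. The other members that were not called and had a window, Fmod, Omd and Kera, held none of the motifs, and had 51.0%, 37.7% and 41.0% G and C.

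Most members lie side by side in the mouse genome, in 3 groups and with Bgn alone on the X chromosome. Dcn, Lum, Kera and Epyc lie in a row on chromosome 10, Prelp and Fmod on chromosome 1, and Aspn, Omd and Ogn on chromosome 13. Within a row the differences were unequal in size. On chromosome 10 Dcn fell by 3.37 while Kera differed by -0.26, and Lum and Epyc were not tested. Kera averaged 3.29 in WT cells, close to the background limit of 3.0, so it had little room to fall. The same holds for Fmod beside Prelp, which averaged 3.48 in WT cells. On chromosome 13 all 3 genes were lower on every 8KR array, by unequal amounts. Aspn differed by -2.26, Ogn by -0.93 and Omd by -0.48. Omd averaged 3.76 in WT cells, which also left it little room to fall. For Kera, Fmod and Omd an unequal response and the background limit cannot be told apart.

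The share of genes next to the members that was called lay near that of all tested genes. Up to 3 tested genes on each side of each row were examined, 24 in all, and of these 1 was called lower and none higher, beside the 3.06% and 2.33% of all tested genes. Their differences ran from -0.67 to 0.22. The called gene was Btg1, an inhibitor of cell proliferation that is the nearest tested gene beside Dcn. It averaged 8.92 ± 0.14 in 8KR cells and 9.54 ± 0.11 in WT cells (SD, n = 3 each; difference -0.62, adjusted p = 0.0338 from limma). Its call was lost when any 1 of the 6 arrays was left out, with an adjusted p of 0.0754 to 0.108 from limma. Btg2, the related gene beside Fmod, had a difference of -0.67 without passing (adjusted p = 0.138 from limma). Cenpp, a centromere protein gene whose model in GRCm38.p6 spans Aspn, Omd and Ogn, had a difference of 0.05, and Optc, a further family gene next to Prelp, one of -0.09. Ecm2, a family relative beside Aspn, averaged 2.67 in both groups and was below background.

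**Figure D3:**
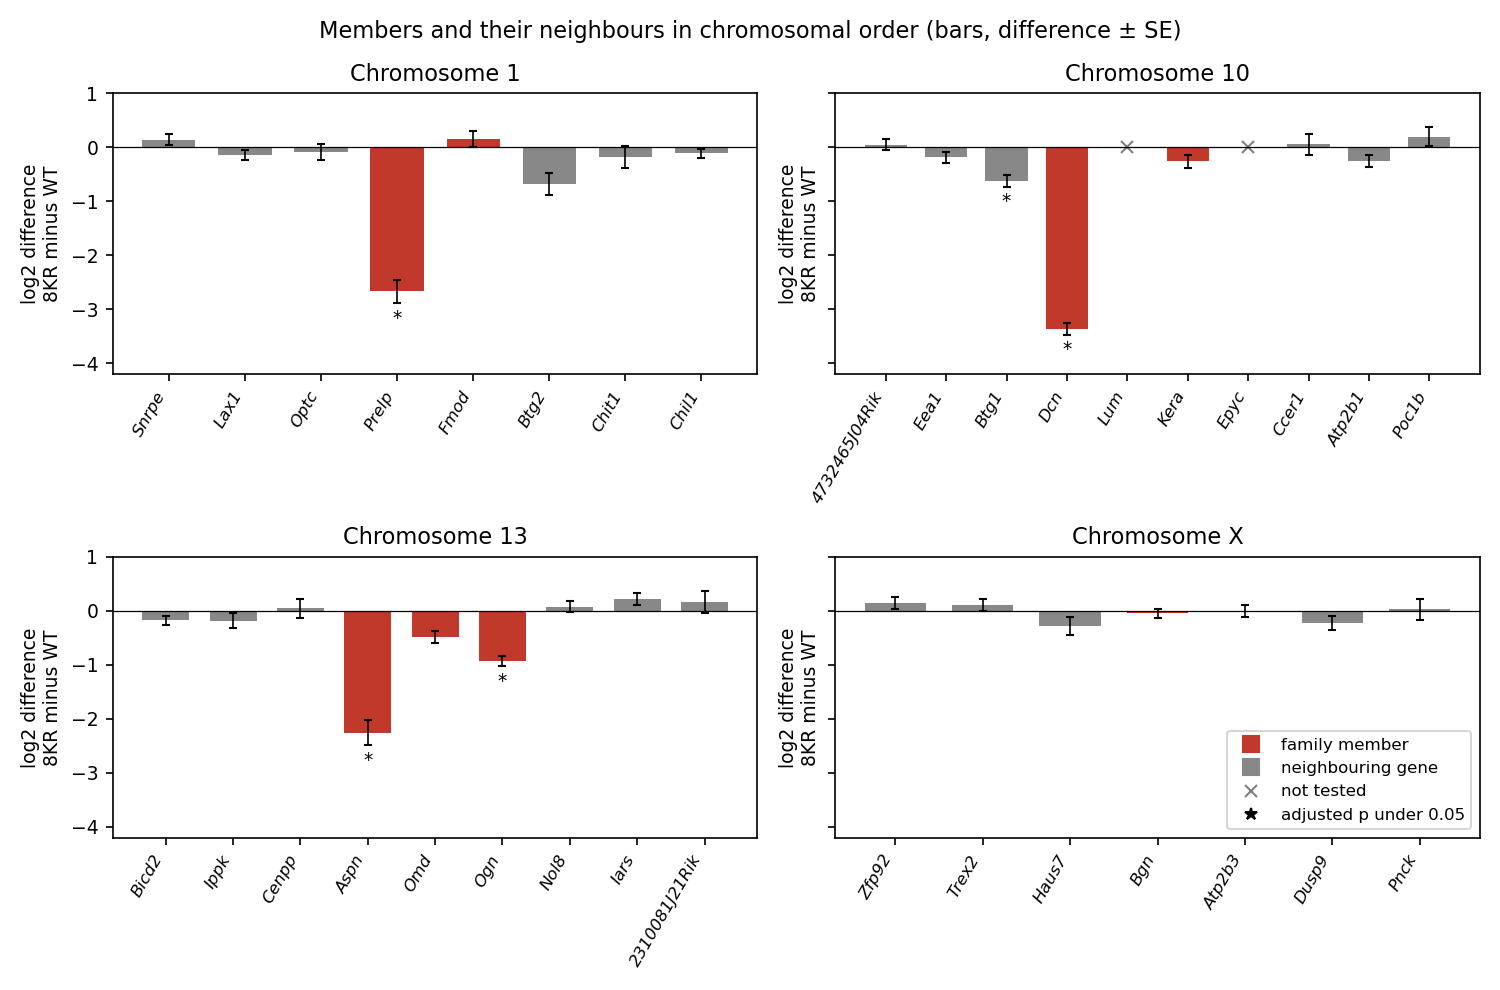
Log2 difference between 8KR and WT cells (vertical axis, bars with standard errors from limma) for the members (red) and the nearest tested genes on each side (grey), in chromosomal order. Crosses mark members that were not tested and stars an adjusted p under 0.05, which Dcn, Prelp, Aspn and Ogn reached among the members and Btg1 among the neighbours.

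Around the family, 5 of 14 collagen genes fell and 2 of 10 protease genes rose. Of the enzymes that make its sugar chains, 1 of 16 for chondroitin and dermatan sulfate fell. So did 1 of 8 for keratan sulfate and 0 of 7 for the linker. In 8 lists of related genes, 82 genes were tested, of which 8 were called lower and 2 higher. The share called lower among all tested genes, 3.06%, and that called higher, 2.33%, serve as comparison. With each array left out in turn, the number called in these lists was 2 to 4, beside 368 to 406 of all probe sets, against 10 and 1245 with all arrays.

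Of 14 collagens that bind members of the family, 5 fell, none rose and 9 were not called, with a median difference of -0.22. Col12a1, the gene of a collagen that sits on the surface of fibrils, measured 4.97, 5.15 and 4.66 on the 8KR arrays, against 7.66, 7.37 and 7.42 on the WT arrays (difference -2.56, standard error 0.15, adjusted p = 0.00180 by limma). Of the type VI collagen genes, which form beaded filaments that biglycan and decorin bind, Col6a2 fell by 0.89 and Col6a1 by 0.84, whereas Col6a3 had a difference of -0.13. Col11a1, a minor fibril collagen, fell by 0.77, and Col3a1, the gene of type III collagen, by 0.52. The main fibril genes Col1a1 (-0.39, adjusted p = 0.0585 from limma) and Col1a2 (-0.13) were not called. Col12a1 was still called without any 1 of the arrays. The number of collagens called was 1, 1 and 3 without 8KR replicate 1, 2 or 3, and 1, 2 and 1 without WT replicate 1, 2 or 3.

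Among 10 proteases that cut these proteoglycans, 2 rose, none fell and 8 were not called. Bmp1, which trims the propeptide of biglycan and of fibrillar procollagens, measured 7.43, 7.23 and 7.38 on the 8KR arrays, against 6.56, 6.47 and 6.54 on the WT arrays (difference 0.82, standard error 0.08, adjusted p = 0.00810 from limma). The groups did not overlap, and the call held without any 1 of the arrays. Mmp14, a membrane-bound matrix metalloproteinase, measured 9.75, 9.78 and 9.76 on the 8KR arrays, against 9.26, 9.07 and 9.16 on the WT arrays (difference 0.60, standard error 0.08, adjusted p = 0.0178 from limma). Without WT replicate 1 Mmp14 was still called, but without any other 1 of the arrays its adjusted p was 0.0609 to 0.0732 from limma.

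For the sugar chains, all 7 enzymes of the linker that joins a chain to its core protein were not called. Of 16 enzymes of chondroitin and dermatan sulfate, only Csgalnact1 was called. This enzyme starts a chondroitin chain, and its gene fell by 0.68 (3.68 ± 0.07 in 8KR cells and 4.37 ± 0.23 in WT cells, SD, n = 3 each; adjusted p = 0.0475 from limma). Without any 1 array other than WT replicate 2 its adjusted p was 0.108 to 0.142 from limma. Of 8 enzymes of keratan sulfate, Chst1 was called, which adds sulfate to the galactose of keratan sulfate. It measured 4.10, 4.40 and 4.30 on the 8KR arrays, against 5.17, 5.49 and 5.46 on the WT arrays (difference -1.10, adjusted p = 0.0118 from limma). Its adjusted p was 0.0524 without 8KR replicate 3, 0.0508 without WT replicate 2 and 0.0567 without WT replicate 3.

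Of 13 tested growth factors and receptors that decorin or biglycan bind, Egfr alone was called. This receptor of epidermal growth factor measured 3.70, 4.19 and 3.81 on the 8KR arrays, against 4.87, 4.94 and 5.18 on the WT arrays (difference -1.10, standard error 0.16, adjusted p = 0.0210 from limma). Without any 1 array other than 8KR replicate 2 its adjusted p was 0.0647 to 0.0785 from limma. The TGF-beta genes Tgfb1 (0.20), Tgfb2 (-0.25) and Tgfb3 (-0.16) were not called. None of the 6 tested further leucine-rich family genes and none of the 8 tested large matrix proteoglycans, such as versican (Vcan, 0.20), was called. Of those 8, Cspg4 came nearest to a call (-0.64, adjusted p = 0.0617 from limma).

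**Figure D4:**
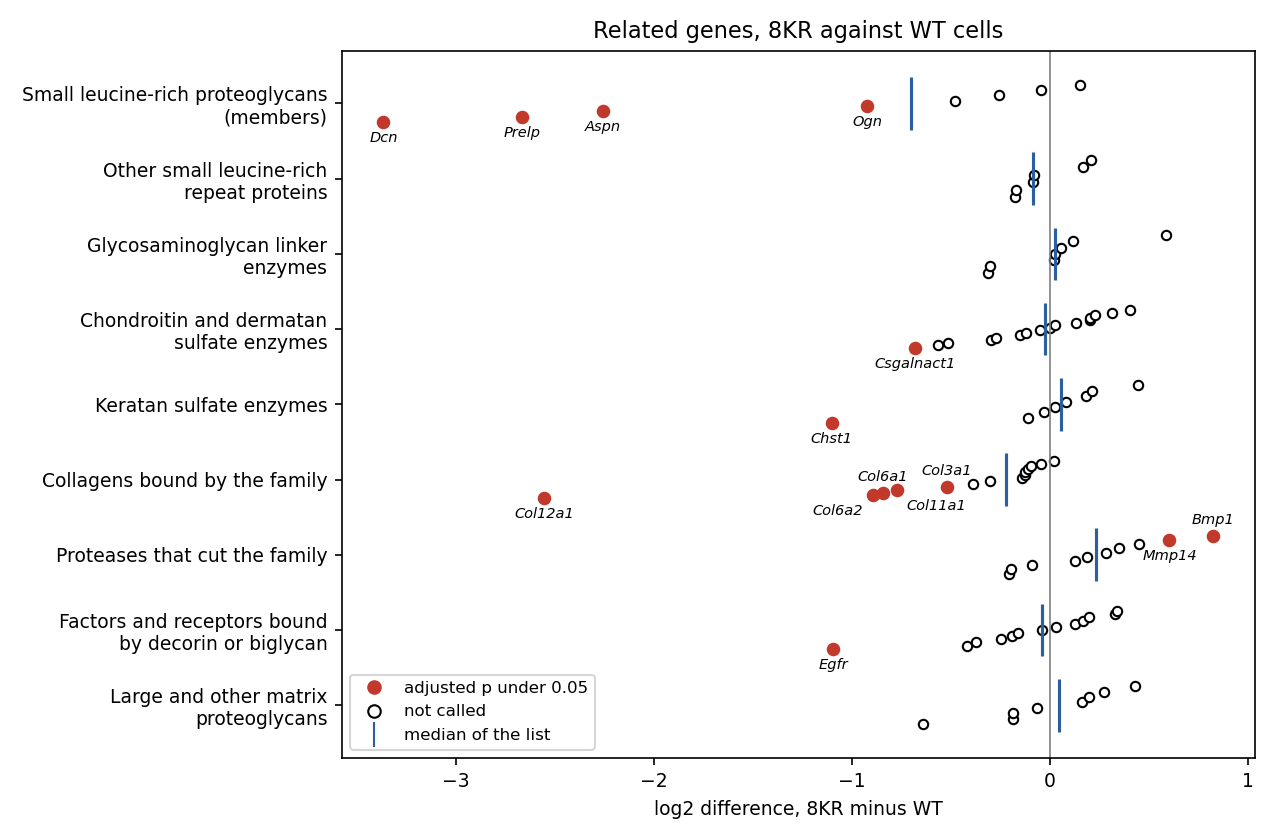
Log2 difference between 8KR and WT cells (horizontal axis) for the members and for 8 lists of related genes, 1 point per tested gene, red and named where the adjusted p from limma was under 0.05, with the median of each list as a blue line. The members reach -3.37, Col12a1 is the lowest of the related genes at -2.56, and Bmp1 and Mmp14 are the called genes to the right of 0.

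The profile of Dcn over the 6 arrays was most like those of Cck, Ppargc1a, Ppef1, Sod3 and Gpc4. Likeness was the root mean square distance between log2 values centred on each gene's mean, and these genes lay 0.12 to 0.34 from Dcn. For such large differences between the groups, this distance mostly reflects how close a gene's fall was in size to that of Dcn. It does not show that the genes vary together in other ways. Gpc4, a glypican of the cell surface, and Sod3, a superoxide dismutase that is held in the matrix, had differences of -2.75 and -3.23. Prelp lay at a distance of 0.47, Aspn at 0.63 and Ogn at 1.22. Cck encodes the peptide hormone cholecystokinin (difference -3.42), Ppargc1a a transcriptional coactivator of mitochondrial genes (-3.24) and Ppef1 a protein phosphatase (-3.13).

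Most fibroblast markers lay above background in both groups, and so did most markers of other cells, so this limit does not separate cell types. Acta2 of smooth muscle averaged 11.6 in 8KR cells and 11.3 in WT cells, and Sox9 of chondrocytes 7.69 and 8.35. Krt8 of epithelium averaged 5.80 in 8KR cells and 5.91 in WT cells. Of 13 fibroblast markers, 12 lay above background in both groups, with only Fap below it, and 1 was called, the collagen gene Col3a1. Their summed linear intensity was 17311 to 17597 on the 8KR arrays and 18063 to 18741 on the WT arrays. Of the markers of other cells, Ptprc, Adgre1 and Itgam of 6 for macrophages, Kdr and Emcn of 6 for endothelium and Adipoq for adipocytes averaged below 3.0 in both groups. So did Hapln1 for chondrocytes and Ibsp for osteoblasts. Others of the same lists lay above it, such as the macrophage marker Cd68 (5.05 in 8KR cells and 5.13 in WT cells), the endothelial marker Tie1 (4.42 in 8KR cells and 4.32 in WT cells) and the adipocyte marker Plin1 (4.88 in 8KR cells and 4.91 in WT cells), none of them called. Of 4 corneal keratocyte markers 2 were called lower, beside 3.06% of all tested genes. Aldh3a1, a corneal crystallin enzyme, fell by 1.42 and the water channel gene Aqp1 by 2.07, and the summed intensity of the list was 102 to 116 on the 8KR arrays and 275 to 327 on the WT arrays. The other markers of this list, Ptgds (0.04) and Angptl7 (0.13), were not called. Aldh3a1 was not called without 8KR replicate 2 or 3 (adjusted p = 0.0522 and 0.0523 from limma). Of 9 tested chondrocyte markers, the transcription factor gene Sox9 fell by 0.66, with sums over the list of 399 to 422 on the 8KR arrays and 527 to 545 on the WT arrays. The other 8 were not called, among them Matn1 (0.20), Matn3 (0.22), Col9a2 (0.03) and Col2a1 (-0.05), and the list's median difference was -0.05. Of 5 tested adipocyte markers Lpl fell by 0.80, with sums of 149 to 161 on the 8KR arrays and 197 to 217 on the WT arrays, and a median difference of -0.03. Lpl was called without WT replicate 3, but without any other 1 of the arrays its adjusted p was 0.0592 to 0.0789 from limma. No marker of osteoblasts, tendon, smooth muscle, macrophages, endothelium or epithelium was called. Of the 6 smooth muscle markers, Cnn1 (-1.03), Des (-0.74) and Tagln (-0.27) had lower values on all 8KR arrays and Acta2 (0.29) had higher ones, with a median of -0.13. Their summed intensity was 3445 to 3465 on the 8KR arrays and 2948 to 3014 on the WT arrays. A sum of linear intensities mostly follows the brightest gene of a list and does not show a shift of the whole list. That gene was Aqp1 for corneal keratocytes, Sox9 for chondrocytes, Lpl for adipocytes and Acta2 for smooth muscle. The part of these markers in the fall of the family was not tested.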

How the data were processed

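RNA of 3 8KR and 3 WT samples had been hybridized to Affymetrix Mouse Gene 1.0 ST arrays. The deposited values are log2 intensities, which the authors normalized before they deposited them. The submitters' notes name Affymetrix Power Tools 1.12.0, but neither how the values were normalized nor a genome build is stated in the sources used here. Samples were grouped by title.

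Probe sets with no group mean above 3.0 were removed, as in the study's methods, which left 28543. Linear models were fitted without covariates by lmFit and eBayes of limma 3.58.1 (R 4.3.3) and p-values adjusted by the Benjamini-Hochberg method over all of them, after the fit had been tested on simulated data. Symbols came from the platform annotation, updated through Entrez identifiers with RefSeq (GRCm38.p6), which also gave gene order and promoters. Of the probe sets, 21789 have 1 symbol, 1621 several and 12147 none. Where a gene had several single-symbol probe sets, the one of highest mean intensity stood for it. The members, lists and motifs were chosen with earlier results of these data known. Named were all members, up to 4 called genes a list with the smallest adjusted p (and Col3a1), neighbours, and the 5 genes most like Dcn; not-called genes were named after their values were seen. Arrays give no counts, and their number limits precision. Alternatives covered the filter, normalization, centring, variance trend, array weights, probe sets, replicate block and each array left out. Figures were drawn with matplotlib 3.10.9.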

Additional observations from a re-analysis of the deposited data

How the results depend on the processing

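The count of 4 members lower in 8KR cells was 4 without any 1 of the arrays, without a filter, with quantile normalization, with an intensity trend, with array weights and with arrays centred on their medians. It was also 4 with the filter at 5.0, but Dcn, Prelp and Aspn pass that filter only through the WT group, so this count says nothing of stability. It was 5 over probe sets with a single symbol and over means of a gene's probe sets, where Omd was also called. No member was called higher under any of them. The difference of Bgn ran from -0.077 to 0.012 without 1 array and turned positive without WT replicate 1 (adjusted p = 0.957 from limma). Csgalnact1 and Col3a1 were not called without a filter (adjusted p = 0.0630 and 0.0502 from limma). Over all probe sets, 1245 were called, against 2295 with the filter at 5.0, 2200 with the trend and 368 to 406 without 1 array. Of the related genes, 10 were called, against 8 without a filter and 2 to 4 without 1 array. The count was 18 with the trend, over single-symbol probe sets and over means of probe sets. With the filter at 5.0 it was 16. Col12a1, Chst1 and Col11a1 pass that filter only through the WT group, so this count says nothing of their stability.

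The labels do not say whether arrays with the same replicate number belong together. Deviations of such arrays correlated at -0.0113, 0.00858 and -0.000484 over tested probe sets, which gives no sign of a pairing but cannot exclude one. With the replicate number as a block, 77 probe sets, 1 member (Dcn, adjusted p = 0.0184 from limma) and 1 related gene were called. Prelp, Aspn and Ogn then had adjusted p of 0.0558, 0.0685 and 0.0773 from limma. Intensities near 3.0, as of Kera, Omd and Aspn in 8KR cells, limit what these arrays can show.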
